A study of Saccharomyces cerevisiae with 27 samples.

Results

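The comparison described here sets a budding yeast strain labelled as an mcd1 mutant that makes Rec8 from the promoter of MCD1 against wild type. It was chosen by group labels and not by measured values, and it used 12 of the 27 Affymetrix expression arrays of the study. The mcd1 strain with REC8 was grown on the April date (experiment date Apr2011, strain JG1857) and wild type on the June date (Jun2011, strain w303a). No strain other than the fob1 deletion (JG1830) was grown on both dates, so its cultures linked them. The date correction takes the shift seen in the fob1 deletion to hold for the other strains, which was not tested. The difference reported is mcd1 with REC8 minus wild type, less the difference between the fob1 deletion in April and the fob1 deletion in June. Each of these 4 groups held 3 cultures. Written another way, the difference is the sum of an April step, mcd1 with REC8 minus the fob1 deletion within the April date, and a June step, the fob1 deletion minus wild type within the June date. The steps share no array. The rest of the study, which compared the cohesin acetyltransferase mutant eco1-W216G with deletions of FOB1 and RAD61, served for comparison. Those groups were eco1-W216G in June (SG156) and, in April, a rad61 deletion (SG297.1), the eco1-W216G fob1 double mutant (BH664), the eco1-W216G rad61 double mutant (SG272.1) and an mcd1 fob1 double mutant with Rec8 from the MCD1 promoter (JG1856), with 3 cultures each.

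Cohesin is a ring of Smc1, Smc3 and a kleisin subunit that holds sister chromatids together from replication until anaphase. In dividing yeast cells the kleisin is Mcd1, also called Scc1, and in meiosis it is largely replaced by Rec8, whose gene is normally silent during vegetative growth. MCD1 is essential, and a strain that lacks it needs another kleisin to divide. Fob1 binds the replication fork barrier of the ribosomal DNA, and the ribosomal RNA genes are read by RNA polymerase I.

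Cells were grown at 30 °C to exponential phase in rich medium with an added amino acid mix. The labels give 1 strain name per genotype, and the replicates therefore measure variation among cultures of 1 strain, some of which may be technical. Expression values are log2 of the deposited intensity. Of the 5814 probe sets, 5716 were tested in limma with 1 model of all 9 groups, and a difference was called at a Benjamini-Hochberg adjusted p under 0.05. Arrays of a group correlated at 0.986 to 0.998, and array medians ran from 1225.3 to 1268 intensity. Replicate 2 of the fob1 deletion in June stood apart: its deviations from the group mean had an SD of 0.235 over probe sets, against 0.0748 to 0.159 in the other 11 arrays. Without it 41 of 114 named genes and 28 of 42 gene list medians moved by over 1.5 times or changed sign. These values are given below for most of the lists but only for part of the genes, and all concern the difference from wild type. In RNA from whole cultures, fewer cells that use a gene and less RNA of it per cell cannot be told apart.

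MCD1 signal was not lost in the strain labelled as an mcd1 mutant. On the log2 scale MCD1 read 11.03, 10.97 and 11.00 in the mcd1 strain with REC8 and 11.39, 11.34 and 11.30 in wild type. It averaged 11.05 ± 0.09 (SD, n = 3) in the fob1 deletion in April and 11.14 ± 0.07 in June. The 3 wild-type arrays lay above all other 24 arrays of the study, and the mcd1 arrays lay among the other strains. The date-corrected difference was -0.25 ± 0.10 (log2, limma SE, here and below), with a 95% interval from -0.45 to -0.05, and it was not called (adjusted p = 0.209). Of that difference, -0.05 came from the April step and -0.20 from the June step. The label does not say which part of MCD1 was altered, and where the probes lie in relation to it was not examined here.

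REC8 was dim on these arrays, at the 4.48th percentile of mean signal. It read 5.61, 5.80 and 5.69 in the mcd1 strain with REC8 and 5.42, 5.07 and 5.21 in wild type, without overlap. The fob1 deletion gave 5.25, 5.28 and 5.44 in April and 5.32, 5.57 and 5.25 in June. The other REC8 strain, the mcd1 fob1 double mutant, was highest at 5.89 ± 0.09 (SD, n = 3), and eco1-W216G at 5.66 ± 0.08 reached the level of the mcd1 strain. The date-corrected difference in REC8 was 0.53 ± 0.17, a fold of 1.44, with an interval from 0.18 to 0.88, and it was not called (adjusted p = 0.144). Its larger part, 0.38, lay in the April step. The genes within 2 places of MCD1 on chromosome IV and of REC8 on chromosome XVI had differences between -0.22 and 0.38, and none was called.

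The other engineered genes and the marker genes served to check the labels. FOB1, which is intact in both strains of the comparison, read 9.34, 9.68 and 9.86 in the mcd1 strain with REC8 and averaged 9.91 ± 0.04 in wild type, against 4.19 ± 0.10 and 3.84 ± 0.11 in the April and June deletion arrays. Its date-corrected value of -0.64 ± 0.17 (adjusted p = 0.0983) therefore contains a difference between the deletion arrays, where the gene is absent, and without the date term it was -0.29. ECO1 (0.33 ± 0.16) and RAD61 (0.12 ± 0.23) did not pass the test. The nutritional marker genes LEU2 (0.26), HIS3 (0.08), ADE2 (0.20) and LYS2 (0.01) did not pass it either, and no probe set was named for TRP1. RAD61 was 0.05, HIS3 0.27, ADE2 0.14 and LYS2 0.11 without replicate 2 of the fob1 deletion in June.

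Against wild type 4 genes passed the test, and URA3 differed most among them. In all, 3 probe sets were higher (0.0525% of those tested) and 1 was lower (0.0175%) in the mcd1 strain with REC8. At an unadjusted p under 0.05 there were 916 probe sets, 509 higher (8.9%) and 407 lower (7.12%). A difference of at least 1.5-fold occurred in 55 probe sets upward and 71 downward, and the median over all probe sets was 0.03 with a median SE of 0.14. The called genes were URA3, RCK1 and YMR262W upward and RPA34 downward. With quantile normalization repeated the split was 1 upward and 2 downward. Leaving out 1 array gave 172 calls without replicate 3 of the fob1 deletion in June, 17 without wild-type replicate 1, 4 and 3 without replicates 2 and 1 of the fob1 deletion in June, and 2 without any of the other 8 arrays.

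URA3 encodes orotidine 5'-phosphate decarboxylase of pyrimidine synthesis and is a common selection marker in yeast strains. It read 13.33, 13.22 and 13.42 in the mcd1 strain with REC8 and 11.16, 11.20 and 11.23 in wild type. The fob1 deletion read 11.45, 11.36 and 11.22 in April and 11.19, 11.10 and 11.33 in June. Only the mcd1 fob1 double mutant with REC8 was as high, at 13.46, 13.36 and 13.38, and every other group averaged between 11.06 and 11.34. The date-corrected difference was 1.99 ± 0.12, or 3.98-fold, with an interval from 1.75 to 2.24 (limma adjusted p = 3.19e-10). The April step was 1.98 and the June step 0.01. The neighbours of URA3 on chromosome V, YEL023C (-0.13), GEA2 (-0.16) and TIM9 (-0.21, and -0.39 without replicate 2 of the fob1 deletion in June), were not called. URA3 kept its call in all 22 alternative analyses, with values from 1.93 to 2.13.

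RCK1 encodes a protein kinase related to the oxidative stress kinase Rck2. Its signal was 5.62, 5.70 and 5.74 in the mcd1 strain with REC8 and 5.48, 5.39 and 5.52 in wild type, so these groups did not overlap but differed little. In the fob1 deletion it was 5.25, 5.12 and 5.22 in April and 5.74, 5.60 and 5.91 in June. The date-corrected difference of 0.78 ± 0.12 (1.72-fold, adjusted p = 0.00354) thus contained a date difference of -0.55 in the fob1 deletion, and without it mcd1 with REC8 exceeded wild type by 0.23. RCK1 lay at the 4.39th percentile of mean signal and was removed when dim probe sets were left out. The call was lost in 3 of 21 alternatives, those without the date term (0.23, adjusted p = 0.0643) and with quantile normalization repeated.

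YMR262W, an open reading frame on chromosome XIII with no standard gene name in the annotation used, was set apart by wild type. It read 8.82, 8.64 and 8.73 in the mcd1 strain with REC8 against 8.27, 8.13 and 8.05 in wild type, and the fob1 deletion averaged 8.68 ± 0.09 and 8.66 ± 0.10 on the 2 dates. All 3 wild-type arrays lay below the other 24 arrays. The difference was 0.57 ± 0.11 (adjusted p = 0.0474), of which 0.51 was the June step.

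RPA34 encodes a subunit of RNA polymerase I that takes part in initiation and elongation on the ribosomal DNA. It read 12.38, 12.39 and 12.51 in the mcd1 strain with REC8 and 12.97, 13.07 and 13.17 in wild type. The fob1 deletion averaged 12.46 ± 0.02 in April and 12.45 ± 0.16 in June, close to the mcd1 strain, and here all wild-type arrays lay above the other 24. The difference was -0.65 ± 0.12, a fold of 0.637 (adjusted p = 0.0474), with -0.03 in the April step and -0.62 in the June step. Without replicate 2 of the fob1 deletion in June, the values of URA3 and RCK1 were 2.05 and 0.85 and still called, whereas YMR262W (0.53) and RPA34 (-0.60) both had an adjusted p of 0.0668. Over all alternatives YMR262W lost its call in 14 of 21 and RPA34 in 12 of 22, with adjusted p-values up to 0.14 and no change of sign.

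**Figure D1:**
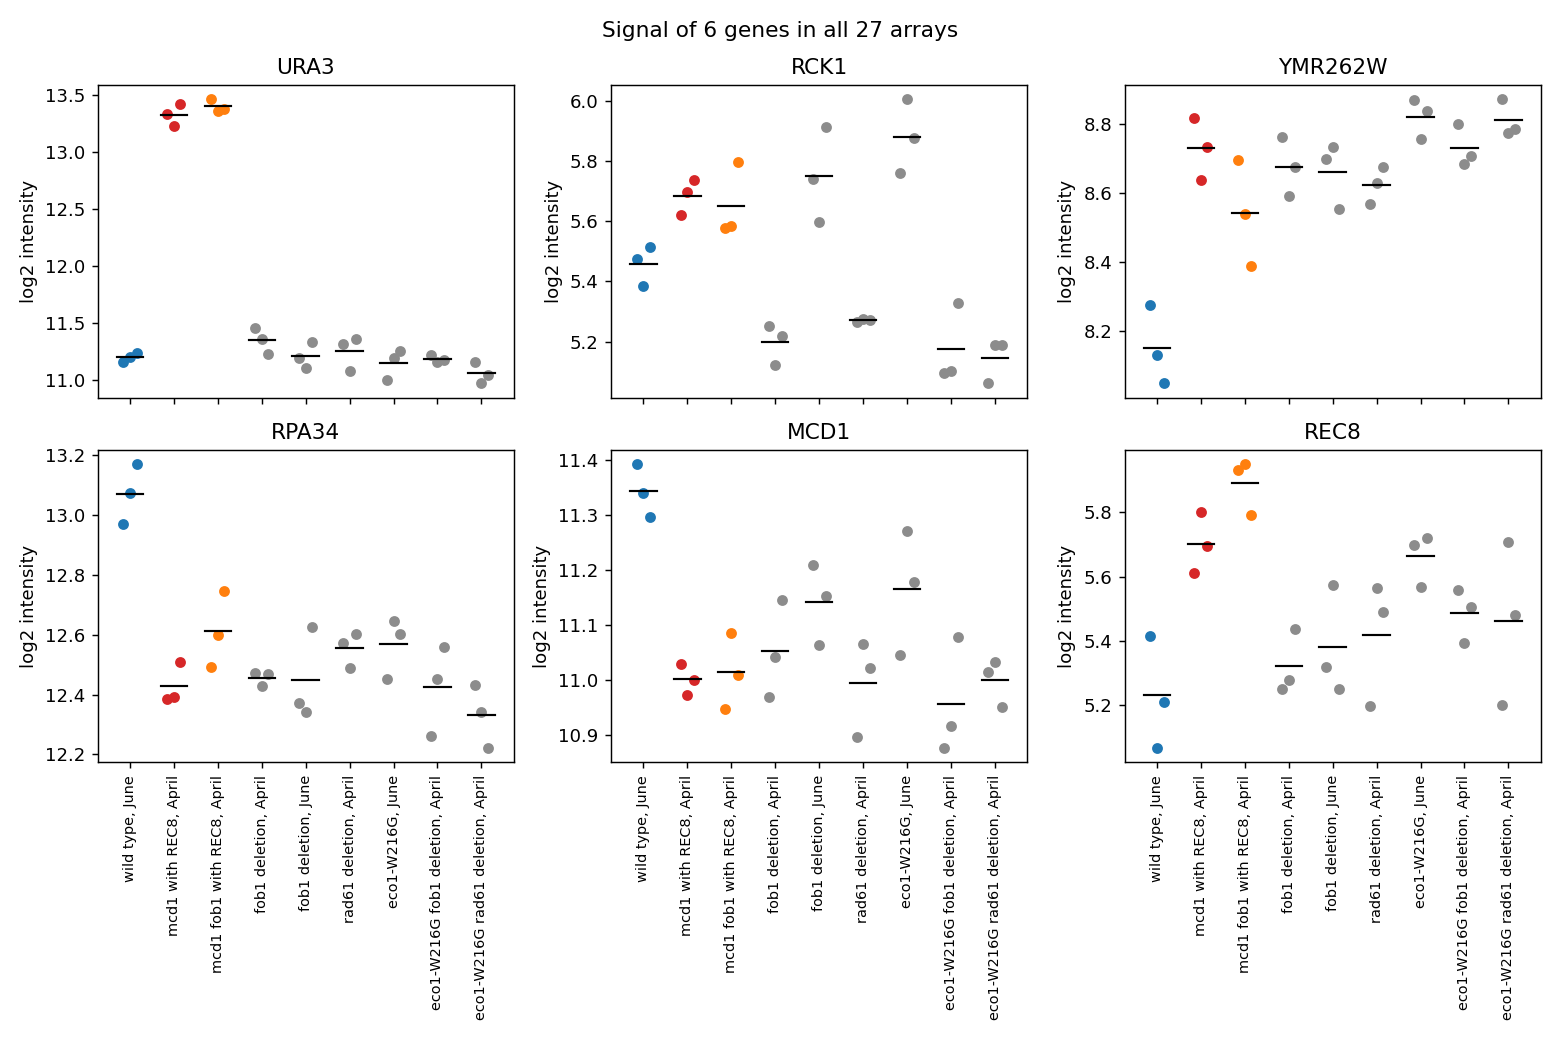
Log2 intensity (vertical axes) of URA3, RCK1, YMR262W, RPA34, MCD1 and REC8 in each of the 27 arrays, by group; points are cultures and bars are group means. URA3 is high in both REC8 strains only, whereas for YMR262W, RPA34 and MCD1 the 3 wild-type arrays lie outside the other 24.

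Next in order of p were genes with adjusted values from 0.0569 to 0.061, which missed the threshold. Upward these were MIX17 (0.39), INP2 (0.56), SKM1 (0.64), MPM1 (0.65), SHC1 (0.72), ZPS1 (0.65) and IME1 (0.74). Inp2 is the peroxisomal receptor for the motor Myo2, Skm1 is a kinase of the PAK family and Ime1 is the master activator of meiotic entry. Downward they were USO1 (-0.58), NOP16 (-0.80), RTT107 (-0.67), YKL063C (-0.64), YAP6 (-0.56), AZR1 (-1.75), EMC10 (-0.41), PAU18 (-0.82) and PHO5 (-0.91). Uso1 is a vesicle tethering factor, Nop16 an assembly factor of the large ribosomal subunit, Rtt107 a scaffold for repair of damaged replication forks and Pho5 the secreted acid phosphatase. USO1 read 10.02, 9.84 and 9.89 in the mcd1 strain against 10.44, 10.39 and 10.64 in wild type, and its April step was 0.00 beside a June step of -0.58. AZR1, a plasma membrane transporter gene at the 3.57th percentile of signal, read 7.29, 7.24 and 6.78 in wild type, 6.02, 4.19 and 5.90 in the fob1 deletion in June and between 4.17 and 4.29 in the mcd1 strain. The June fob1 arrays of AZR1 were thus widely spread, and the wild-type arrays lay above all of them. Without replicate 2 of the fob1 deletion in June, its low array, the AZR1 difference was -1.16 and called (adjusted p = 0.00556), and AZR1 was called in 7 of 21 alternatives. Each of these near-threshold genes was called without replicate 3 of the fob1 deletion in June. In some alternative PAU18, EMC10 and PHO5 came nearest to 0 among them, at -0.01, -0.07 and 0.08.

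Most of the difference from wild type was found within the June date. The April step, mcd1 with REC8 against the fob1 deletion, had 3 calls upward (0.0525%) and 1 downward (0.0175%). The June step, the fob1 deletion against wild type, had 499 upward (8.73%) and 395 downward (6.91%). Of the 126 probe sets with a date-corrected difference of at least 1.5-fold, the June step was the larger part in 112 and the April step in 14. Selecting on the sum favours the step with the wider spread, so this split is no separate evidence. Of the 894 calls of the June step, 891 had the same sign in the date-corrected difference, which contains that step, and 594 of them had an unadjusted p under 0.05 there. The SD of differences over all probe sets was 0.145 in the April step and 0.248 in the June step. When the fit held only the 6 June arrays of these groups it made 1 call in place of 894, so the count depends on which arrays share the fit. Leaving out 1 array changed it as well: from 15.6% of probe sets in both directions it went to 3.78% without wild-type replicate 3 (148 upward and 68 downward), 8.87% without wild-type replicate 2, 8.61% without replicate 2 of the fob1 deletion and 10.3% without its replicate 1.

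The 4 calls of the April step were FOB1, URA3, RCK1 and SER3. FOB1 was higher by 5.44, as the strain it is compared with lacks the gene. SER3 encodes 3-phosphoglycerate dehydrogenase, the first enzyme of serine synthesis from glycolysis. SER3 read 10.34, 10.26 and 9.96 in the mcd1 strain with REC8 and 10.66, 10.99 and 11.01 in the fob1 deletion in April, and wild type read 10.20, 10.37 and 10.31. The mcd1 strain was thus at the wild-type level of SER3, and the April fob1 arrays were above both. SER3 fell by 0.70 in the April step (adjusted p = 0.00762), and its date-corrected difference from wild type was -0.58 ± 0.16 (adjusted p = 0.104). No other gene outside these 4 was called between mcd1 with REC8 and the fob1 deletion. Of 5716 probe sets, 278 had an unadjusted p under 0.05, the 4 calls included. That is close to the share this threshold passes where nothing differs. The count of calls was 2 without replicate 2 or 3 of the fob1 deletion in April or replicate 3 of the mcd1 strain, with RCK1 and SER3 no longer called.

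**Figure D2:**
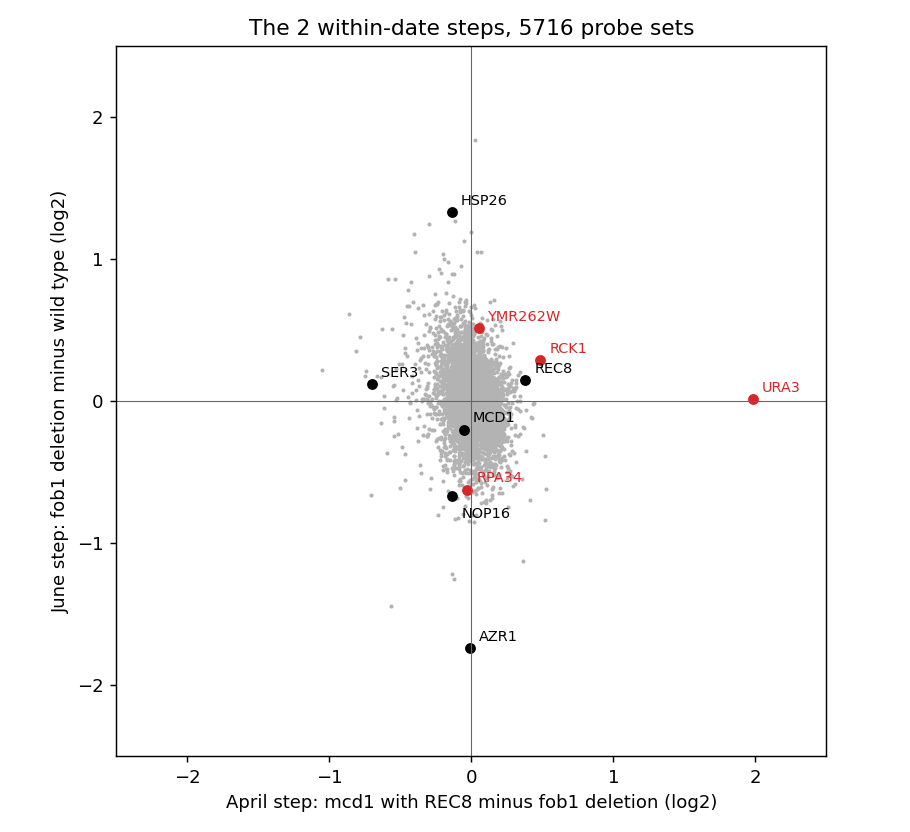
Each point is 1 of 5716 probe sets, placed by its April step (horizontal, log2) and its June step (vertical, log2), whose sum is the date-corrected difference; red labels are the 4 called genes and FOB1, at 5.44 and -6.07, lies outside the axes. The cloud is taller than it is wide, with SDs of 0.248 and 0.145, and URA3 stands alone on the right.

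The 3 wild-type arrays lay outside all other 24 arrays for many genes, with no date correction. Wild type was grown in June, and of the 24 only the arrays of eco1-W216G and of the fob1 deletion in June shared that date. Date and genotype therefore cannot be told apart in these counts. Wild type was below every other array in 232 probe sets (4.06%) and above every other array in 266 (4.65%). Among 120 measured ribosome biogenesis genes, wild type was above all others in 39 and below in 0. Among 71 stress genes under the activators Msn2 and Msn4 it was below all others in 16 and above in 0.

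The genes of RNA polymerase I and of ribosome assembly were lower in the mcd1 strain with REC8 than in wild type by their medians. RPA34 was the single call among them. Of 17 measured RNA polymerase I genes, 14 lay below 0, 4 of them at an unadjusted p under 0.05, and the median was -0.14. Over all probe sets 7.12% were lower and 8.9% higher at that p, and the median was 0.03. Of 120 ribosome biogenesis genes, 115 lay below 0, 37 at an unadjusted p under 0.05 downward and 0 upward, with a median of -0.23 and no call. The June step held 55 calls in this list, all downward, with a median of -0.32, whereas the April step had none and a median of 0.08. Over all probe sets the June step called 6.91% lower and 8.73% higher. NOP16 read 10.91, 10.80 and 11.03 in the mcd1 strain with REC8 and 11.62, 11.65 and 11.99 in wild type, and BUD22, a factor of small subunit assembly, averaged 9.15 ± 0.14 against 10.01 ± 0.22. Their date-corrected differences were -0.80 ± 0.18 and -0.79 ± 0.26. Without replicate 2 of the fob1 deletion in June the median of ribosome biogenesis was -0.12 and that of RNA polymerase I was -0.01.

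Ribosomal protein genes differed less. Of 127 measured, 119 lay below 0 and 30 had an unadjusted p under 0.05 downward, with a median of -0.08 and no call. Over all probe sets 7.12% were lower at that p, and the median was 0.03. RPL36A, for the large subunit, was 14.24, 14.18 and 14.12 in the mcd1 strain and 14.28, 14.36 and 14.31 in wild type, a difference of -0.14 without the date term that became -0.38 ± 0.09 with the lower June fob1 arrays (13.97, 13.82 and 14.14). Translation factors and tRNA synthetases had a median of -0.07, and 2 of 49 had an unadjusted p under 0.05. That median was 0.00 without replicate 2 of the fob1 deletion in June. The chromatin factors of the ribosomal DNA, which include the silencing and topoisomerase genes, had a median of -0.05 over 16 genes, and of -0.02 without that array. TOP2, for topoisomerase II, was -0.30 ± 0.12 (adjusted p = 0.24). Among control probe sets for ribosomal RNA, 14 of 17 lay below 0, from -0.96 to 0.08, and none was called (lowest unadjusted p = 0.0214).

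Genes under Msn2 and Msn4, the activators of the general stress response, lay above wild type by their median. Of 71, 62 were above 0, 17 had an unadjusted p under 0.05 upward and 2 downward, and the median was 0.26 with no call. Over all probe sets 8.9% were higher and 7.12% lower at that p, and the median was 0.03. The June step called 26 of the 71, all upward (8.73% of all probe sets), with a median of 0.34. The April step called 0 with a median of -0.06. HSP26, a small heat shock protein gene, read 10.32, 9.86 and 9.48 in the mcd1 strain with REC8 and 8.38, 8.50 and 8.51 in wild type. It averaged 10.02 ± 0.13 and 9.79 ± 0.62 in the April and June fob1 arrays. All other 24 arrays lay above the 3 wild-type arrays, and the date-corrected difference was 1.19 ± 0.45 (adjusted p = 0.205). HSP30, a plasma membrane stress protein gene, was 1.15 ± 0.46 (adjusted p = 0.224). Without replicate 2 of the fob1 deletion in June the median of the stress list was 0.18.

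**Figure D3:**
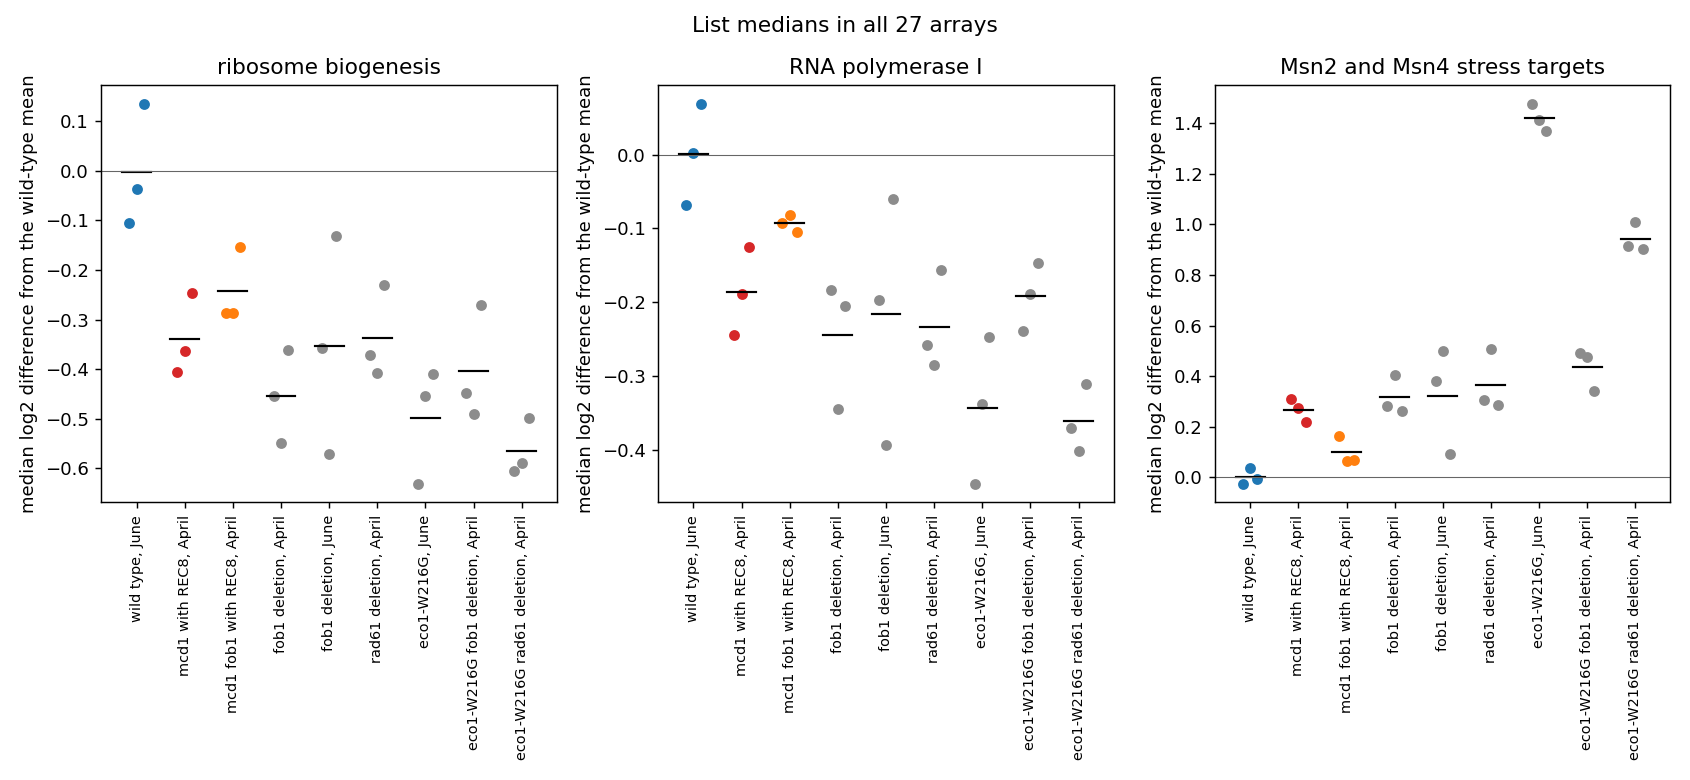
Median log2 difference from the wild-type mean over the 120 ribosome biogenesis genes, 17 RNA polymerase I genes and 71 Msn2 and Msn4 targets, in each of the 27 arrays; points are cultures and bars are group means. These differences carry no date correction. The mcd1 arrays run from -0.41 to -0.25 in ribosome biogenesis and from 0.22 to 0.31 in stress targets. In stress targets eco1-W216G is highest at 1.37 to 1.48.

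The other stress and energy lists held no called member against wild type. Autophagy genes had a median of 0.21 over 30, with 3 at an unadjusted p under 0.05 upward (8.9% of all probe sets). In the June step 8 were called, all upward (8.73% of all probe sets). Genes of the tricarboxylic acid cycle had a median of 0.18 over 21, with 20 above 0. IDH1 and IDH2, the subunits of isocitrate dehydrogenase, were 0.59 ± 0.22 and 0.50 ± 0.17. IDH1 read 12.25, 12.36 and 12.23 in the mcd1 strain, 11.91, 11.91 and 11.84 in wild type and 13.10 in replicate 2 of the fob1 deletion in June. Without that array IDH1 was 0.27 and IDH2 0.30. Respiratory chain genes had a median of -0.11 over 38, which became 0.00 without that array. Glucose-repressed genes had a median of 0.11 over 43, hexose transporters 0.13 over 20, heat shock and folding chaperones 0.05 over 36 and proteasome genes -0.06 over 35. Without that array the medians were 0.13 for autophagy, 0.07 for glucose-repressed genes, 0.20 for hexose transporters and 0.08 for chaperones.

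The cohesin genes themselves showed no call. Their median was 0.00 over 14, from SGO1 at -0.29, the shugoshin that protects centromeric cohesin, to REC8 at 0.53. The alternative clamp loaders and fork cohesion factors had a median of 0.02 over 16. CTF18, the large subunit of the cohesion clamp loader, was -0.55 ± 0.15 (adjusted p = 0.0983), with 8.70, 8.59 and 8.65 in the mcd1 strain and 8.89, 8.85 and 9.14 in wild type. MRC1, the fork checkpoint mediator, was -0.34 ± 0.16. Condensin and Smc5/6 genes had a median of 0.01 over 13 and no member at an unadjusted p under 0.05, with MMS21, the SUMO ligase of Smc5/6, at -0.52 ± 0.27 and YCG1, a condensin subunit, at -0.29 ± 0.16.

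Cell cycle lists were centred near 0. The G1 to S and replication genes had a median of 0.01 over 49, with 2 at an unadjusted p under 0.05 upward and 8 downward. Shares over all probe sets were 8.9% and 7.12%. Among the 49, CLN1, a G1 cyclin, was -0.56 ± 0.15 and CLB6, an S phase cyclin, was -0.53 ± 0.15 (both adjusted p = 0.0983). CLB6 read 9.60, 9.52 and 9.74 in the mcd1 strain with REC8 and 10.06, 10.31 and 10.29 in wild type, without overlap. Genes of the G2 to M period had a median of 0.10 over 33, those of the M to G1 period 0.09 over 30, and kinetochore, spindle and checkpoint genes 0.02 over 53. CLN1 was -0.36 without replicate 2 of the fob1 deletion in June, and the medians of the G1 to S and M to G1 lists were then both 0.05. HSK3 and DAD2, subunits of the Dam1 ring at kinetochores, were -0.56 ± 0.17 and -0.49 ± 0.15. Core histone genes had a median of -0.10 over 10, and DNA damage and ribonucleotide reductase genes 0.11 over 36.

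Meiotic genes were examined because Rec8 is a meiotic protein, and none of 73 was called. Their median was 0.10, with 5 at an unadjusted p under 0.05 upward and 1 downward. Over all probe sets these shares were 8.9% and 7.12%. IME1 was the highest member at 0.74 ± 0.16 (adjusted p = 0.061), and it read 7.74, 7.83 and 7.86 in the mcd1 strain with REC8 and 7.33, 7.40 and 7.37 in wild type. The fob1 deletion read 7.75, 7.52 and 7.54 in April and 7.93, 7.97 and 7.79 in June, so IME1 was also above wild type there. SHC1, a sporulation gene of chitin synthesis, was 0.72 ± 0.15 (adjusted p = 0.0597), and NDT80, the activator of middle meiotic genes, was 0.29 ± 0.27. NDT80 was -0.06 and the median of the list 0.06 without replicate 2 of the fob1 deletion in June.

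The labelled cell state was checked with marker genes. The summed intensity of 7 MATa markers was 42690 to 45600 in the mcd1 strain with REC8 and 44360 to 45680 in wild type, and that of 4 MAT alpha markers was 826 to 1039 and 711 to 777. The ranges of the strains overlapped for the MATa markers and did not for the MAT alpha markers. The MAT alpha sums of the fob1 deletion were also above wild type, at 796 to 965 in April and 833 to 890 in June. The 6 meiotic markers summed to 742 to 804 and 649 to 738, and the 5 haploid markers to 10930 to 11940 and 11300 to 11710. The meiotic ranges did not overlap, and in the fob1 deletion they were 787 to 858 in April and 810 to 1039 in June. The 5 stationary phase markers summed to 10750 to 13340 in the mcd1 strain and 7736 to 9652 in wild type. These stationary ranges did not overlap, and in the fob1 deletion they were 11230 to 13270 in April and 8662 to 22220 in June. All 5 lay above 0 after date correction with a median of 0.34, HXK1, a hexokinase, at 0.62 ± 0.20 and HSP12 at 0.54 ± 0.46, and none was called. Without replicate 2 of the fob1 deletion in June that median was 0.03 and HSP12 was -0.01. The part of culture state in the stress and ribosome values was not tested.

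**Figure D4:**
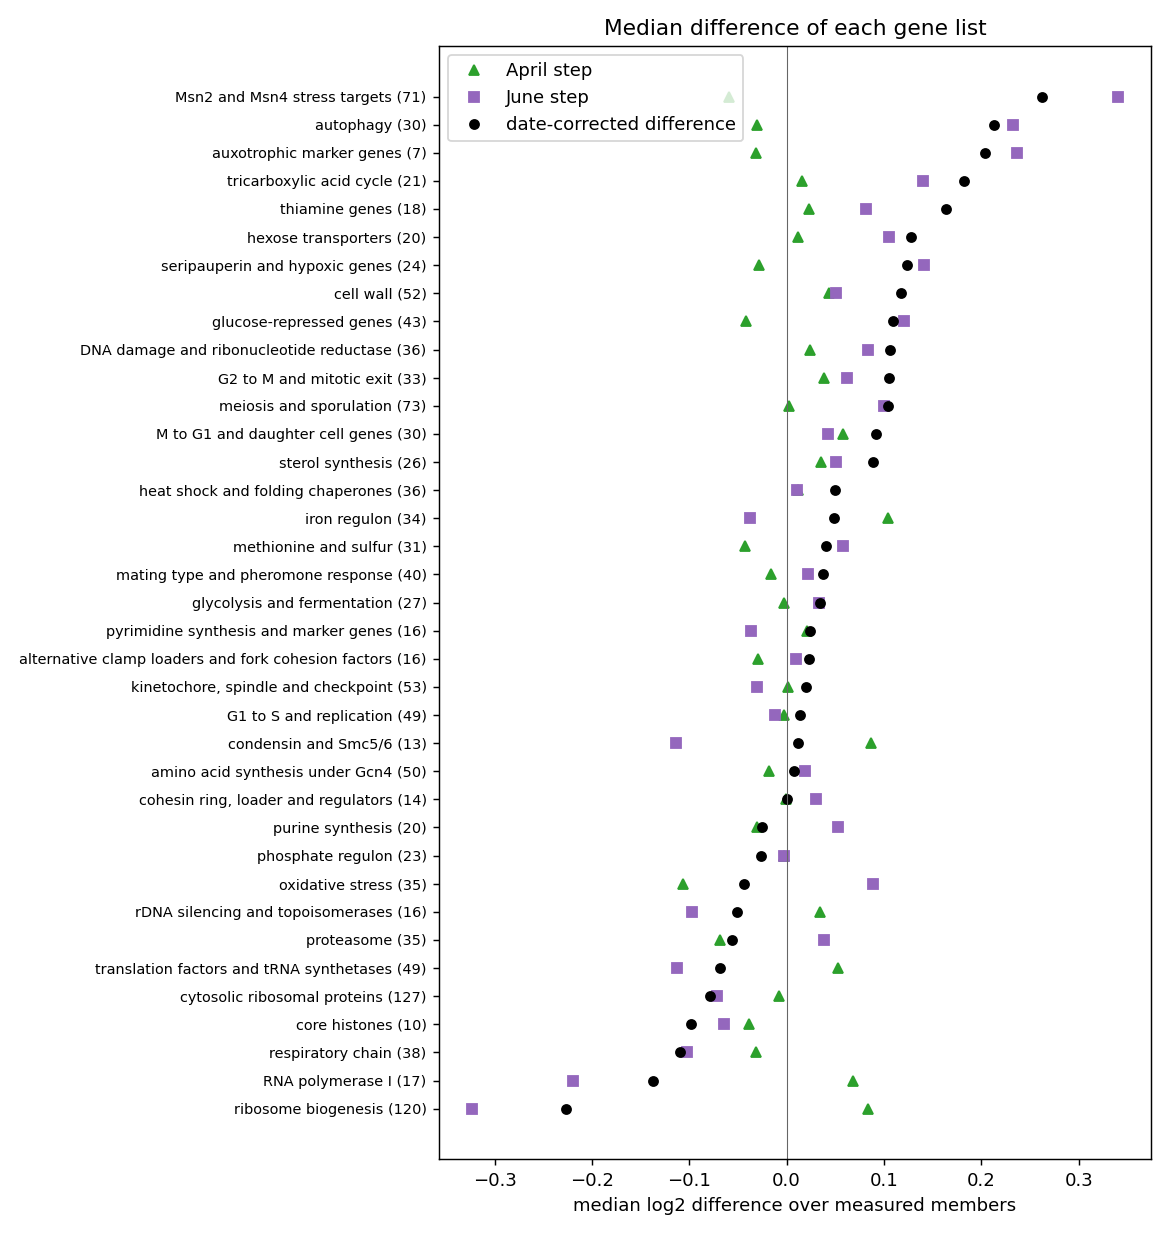
Median log2 difference over the measured members (number in brackets) of 37 gene lists, for the April step, the June step and the date-corrected difference. The date-corrected medians run from -0.23 for ribosome biogenesis to 0.26 for Msn2 and Msn4 targets, and in both of these lists the April median has the opposite sign to the June median.

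The remaining nutrient lists held no call except URA3 in the lists of pyrimidine synthesis and of marker genes. Amino acid synthesis genes under Gcn4 had a median of 0.01 over 50, with LYS20, for homocitrate synthase of lysine synthesis, at -0.85 ± 0.24 (adjusted p = 0.102). Phosphate genes had a median of -0.03 over 23, and PHO5 and PHO11, both acid phosphatases, were -0.91 ± 0.21 and -0.56 ± 0.24, but 0.08 and 0.06 without the date term. Iron regulon genes had a median of 0.05 over 34, with FRE1, a ferric reductase, at -0.85 ± 0.34. FIT2 and FIT3, cell wall mannoproteins that retain iron carriers, were -0.32 ± 0.51 and -0.76 ± 0.38, but 1.10 and 1.19 without the date term, since the fob1 deletion itself read higher in April by 1.42 and 1.96. Thiamine genes had a median of 0.16 over 18, methionine and sulfur genes 0.04 over 31, purine genes -0.03 over 20 and sterol genes 0.09 over 26. Cell wall genes had a median of 0.12 over 52 and seripauperin and hypoxic genes 0.12 over 24, with TIR1, a cold and anaerobic mannoprotein, at -0.94 ± 0.28 in both. Oxidative stress genes had a median of -0.04 over 35 and mating genes 0.04 over 40. LYS20 was -0.53 and FRE1 -0.56 without replicate 2 of the fob1 deletion in June. The medians were then 0.12 for Gcn4 genes, 0.08 for the iron regulon, 0.18 for methionine and sulfur genes, 0.04 for purine genes, 0.06 for seripauperin and hypoxic genes, -0.02 for oxidative stress genes and 0.06 for mating genes. Chromosome medians ran from 0.01 on chromosome XII, which carries the ribosomal DNA, to 0.06 on chromosome IX.

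The difference of the mcd1 strain from eco1-W216G was tested in the same way, with the April and June fob1 arrays again subtracted, so it shares arrays with the comparison against wild type. There were 995 probe sets higher in the mcd1 strain (17.4%) and 773 lower (13.5%). Stress genes were lower than in eco1-W216G: of 71 Msn2 and Msn4 targets, 62 fell and 1 rose, with a median of -1.16. HSP26 was 12.97, 12.76 and 12.91 in eco1-W216G and differed by -3.22 in the mcd1 strain (adjusted p = 1.77e-05). SIP18, a desiccation protein gene, was -3.29 and PIR3, a cell wall protein gene, -3.35. NCA3, of the SUN family, was lowest among genes with a name at -3.76, and 2 probe sets without a gene name were at -4.70 and -3.29.

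Other lists also held calls between the mcd1 strain and eco1-W216G, beside shares over all probe sets of 17.4% higher and 13.5% lower. Respiratory chain genes fell in 27 of 38 and rose in 0, proteasome genes fell in 22 of 35 and rose in 0, and tricarboxylic acid cycle genes fell in 9 of 21 and rose in 0. Upward, 30 of 120 ribosome biogenesis genes, 21 of 49 translation genes, 16 of 30 M to G1 genes and 14 of 49 G1 to S genes rose. Downward, the counts in these lists were 0, 1, 3 and 1. FIT2, FRE3 and FIT3 were higher in the mcd1 strain by 6.58, 4.50 and 4.54, and FIT2 read 3.62, 3.82 and 4.18 in eco1-W216G and 11.84, 11.39 and 12.39 in the mcd1 strain. ECO1 signal was higher by 3.57 in the mcd1 strain. URA3 was higher by 2.04, and LEU2 by 1.23. RSB1, which encodes a transporter of sphingoid bases, was higher by 2.32 (adjusted p = 0.0303), and its call was lost in 8 of 21 alternatives. Over these its value ran from 1.11 to 3.12. Without the date term the number of calls was 2983 in place of 1768. It was 2179 without replicate 2 of the fob1 deletion in June, and list counts of this comparison were not made without that array.

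From the rad61 deletion, grown on the same April date, the mcd1 strain with REC8 differed at 3 probe sets, all higher (0.0525%), and 0 were lower by limma. Of 5716 probe sets, 449 had an unadjusted p under 0.05. The 3 called were RAD61, the deleted gene, at 3.25, URA3 at 2.07 and YLR156W at 0.71 (adjusted p = 0.0334). YLR156W read 6.94, 7.20 and 7.04 in the mcd1 strain, 6.20, 6.27 and 6.60 in the rad61 deletion and 6.53, 6.08 and 6.19 in wild type. It belongs to the region beside the ribosomal DNA where near-identical open reading frames lie, so its probes may not separate the copies. Its date-corrected difference from wild type was 0.66 ± 0.18 (adjusted p = 0.102). The YLR156W call was lost in 7 of 13 alternatives, with adjusted p up to 0.521: with only the arrays compared, with array weights, and without replicate 1 or 2 of the rad61 deletion or any 1 of the mcd1 arrays. In the rad61 deletion, replicate 2 deviated most from the group mean, with an SD of 0.197 over probe sets. That SD was 0.1395 in replicate 1 and 0.1286 in replicate 3. The count of calls was 2 without replicate 2 of the rad61 deletion and 6 without its replicate 3. With the replicate number as a block it was also 6, these 3 included. The others, named after their values were seen, were RCK1 (0.41) upward and YOR338W (-1.02) and YPS3 (-0.79) downward. HSP26 differed from the rad61 deletion by -0.41 and from the April fob1 deletion by -0.14, neither called.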

How the data were processed

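RNA of 27 yeast cultures in 9 groups of 3 was measured on Affymetrix arrays. Per the labels, total RNA came from hot acid phenol extraction, and biotinylated cRNA was made from 300 ng. The deposited values are linear intensity per probe set (10.372 to 39895), which the submitters' processing notes say the authors made with RMA and R 2.15.2. Whether both dates were normalized together is not given in the sources used here. Arrays have no read depth, and their number limits the precision.

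Here log2 was taken, and the probe sets for controls (51) and reporters (47) were set aside. Of the 5716 tested, 5498 had 1 gene symbol and 218 none in the platform annotation. Where a gene had several probe sets the brightest stood for it in lists, which left 5449 genes. Tests used limma 3.58.1 (lmFit, eBayes) in R 4.3.3, two-sided, on 9 group means with 18 residual degrees of freedom. p-values were adjusted by Benjamini-Hochberg over all probe sets within each comparison. The model was tested on simulated data. Replicate numbers were checked for pairing by the correlation of deviations from group means. Only mcd1 with REC8 and the rad61 deletion had every same-numbered pair over 0.1 (0.295, 0.405 and 0.303). Arrays of different number were not compared, so the check cannot show pairing, and no label gives it.

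The comparison, the gene lists (42, with 1291 of 1344 genes measured) and the named genes were chosen with earlier results of these data known. A rule chose 114 probe sets to name, of which the text prints part: the targeted and marker genes, all called genes, the 10 smallest p-values per direction, up to 2 or 4 members per list, neighbours of MCD1, REC8 and URA3, and the 5 highest and lowest calls against eco1-W216G and the rad61 deletion. SGO1 appears as the lowest member of its list, and it, SER3 and the April-step calls were added after their values were seen. Names and gene order came from the R64 gene table, and no coordinates are printed here. Lists were described by counts and medians and not tested.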

Additional observations from a re-analysis of the deposited data

Results flagged for a closer look

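Signal that differed in probe sets outside the comparison came from 1 reporter and 3 control probe sets. These were left out of the test and are shown because they lay above wild type by a limma adjusted p under 0.05. The reporter probe set, which carries no yeast gene name, differed by 5.48 (log2, date-corrected). It averaged 9.80 ± 0.33 (SD, n = 3) in the mcd1 strain with REC8 and 9.98 ± 0.37 in the mcd1 fob1 double mutant with REC8. In the 7 other groups it averaged between 4.21 and 4.56. The 3 control probe sets for URA3 differed by 2.09 for the 3' part, 2.03 for the 5' part and 1.98 for the middle of the gene, beside 1.99 for the URA3 probe set that was tested.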

How the results depend on the processing

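The number of calls of mcd1 with REC8 against wild type, 4, became 1401 without the date term (653 higher and 748 lower) and again 1401 with the date as a random block, whose correlation was 0 because the groups already encode the date. Array weights, chosen after seeing the data and stopped before they converged, gave 684, and leaving out dim probe sets gave 1. Leaving out 1 array gave 2 to 172 calls. For mcd1 with REC8 against the fob1 deletion the 4 calls became 2 with only the arrays compared, 2 without dim probe sets, 9 with array weights and 2 to 6 without 1 array. For the fob1 deletion against wild type the 894 calls, 15.6% of probe sets, became 0.0175% with only the arrays compared, 40.9% with array weights and 3.78% to 23.0% without 1 array. Against eco1-W216G the 1768 calls became 2983 without the date term and with the date as a random block, and 2678 with array weights, and 1427 to 2179 without 1 array. Against the rad61 deletion the 3 calls became 1 without dim probe sets, 6 with array weights and 2 to 6 without 1 array. The cause of these changes was not tested, apart from fewer genes or samples where the alternative removes them. Quantile normalization, median centring, an offset of 16 and a trended and robust prior kept every one of these counts within 1.5 times.

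Whether replicate numbers pair the samples is not settled. Same-numbered arrays of mcd1 with REC8 and the April fob1 deletion deviated together at 0.41, 0.27 and 0.04. Those of mcd1 with REC8 and wild type did so at -0.02, 0.12 and 0.27. With replicate number as a replicate block the counts were 141 against wild type (71 higher, 70 lower, the 4 included) and 4 against the April fob1 deletion. They were 21.6% of probe sets for the June step, 2000 against eco1-W216G and 6 against the rad61 deletion. Of 131 gene results, 3 reversed, all without the date term or with the date as a random block: MED2 to -0.27, FIT2 to 1.10 and FIT3 to 1.19. In all 21 changed sign under some alternative. Differences in dim genes such as REC8, RCK1 and AZR1 are limited by signal close to background.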
